A study of Mus musculus with 16 samples.

Results

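Melanoma biopsies from mice that had been on a BRAF inhibitor for 120 days and are titled resistant were set against biopsies taken after 4 days of treatment. The members were chosen by their titles. They are 8 of the 16 tumours of the series, with 4 resistant and 4 4-day tumours. The remaining biopsies are 4 from untreated mice and 4 after 60 days of treatment. All groups are described only as mouse melanoma. The drug, its dose, the strain, the driver alleles, the age and sex of the mice and the hour of the biopsy are not given in the sources used here. Total RNA of each tumour was labelled with Cy5 and hybridised with a common mouse reference RNA in Cy3 on a 2-colour array of 60-base probes. The value of a gene is the log2 ratio of tumour over reference, and a difference of 1 on this scale is a 2-fold difference of the ratio.

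Several features of the design limit what this comparison can separate. The 4-day tumours carry title codes of a series of their own (STS), whereas all other tumours carry RG codes, so an origin or handling of their own cannot be told apart from the length of treatment. The position of an array on its slide followed the group in the same way. Resistant replicates 1 and 2 share the code RG4 and lay on slide 2, and resistant replicates 3 and 4 share the code RG5 and lay on slide 1. Code and slide therefore cannot be told apart within the resistant group. The 4-day replicates 1 and 2 were on slide 2 and replicates 3 and 4 on slide 1, so each slide holds 2 tumours of both groups. No label says which tumours came from separate animals, and the p-values measure the spread between these samples. In a biopsy, fewer cells of a type and less RNA per cell cannot be told apart. All 20 melanocyte genes tested were above background on at least 1 array of either group.

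BRAF inhibitors block a kinase that is mutated in many melanomas and drives the MAPK cascade, whose output includes cyclin D1 and a set of feedback inhibitors of the cascade. Tumours under such drugs commonly regain growth after an initial response. The circadian clock, which led the genes of this comparison, is a feedback loop in nearly all cells. Its activators CLOCK and BMAL1 (encoded by Arntl) bind E-box sequences and switch on the Per and Cry repressors, the nuclear receptors Nr1d1 and Nr1d2, and the D-box factors Dbp, Tef and Hlf. NR1D1 and NR1D2 in turn repress Arntl, so that Arntl and Dbp peak at nearly opposite hours of the day in mouse tissues.

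The promoters of 4 clock genes are shown. They were picked because they were lower in resistant tumours without overlap and their windows hold the E-box (CACGTG) or the D-box (TTATGTAA), in capitals. The sequences are from RefSeq on GRCm38.p6 and run from 250 bases before to 50 bases after a start site, in the direction of the gene. Tef has 2 start sites and both windows are given. Per1 also has 2, and its other window (chr11:69099902-69100201), which holds neither box, is not shown. The windows of Bhlhe41 and Cry1, clock genes whose groups overlapped, hold an E-box as well and are not shown.
Ciart (chr3:95882179-95882478, minus strand): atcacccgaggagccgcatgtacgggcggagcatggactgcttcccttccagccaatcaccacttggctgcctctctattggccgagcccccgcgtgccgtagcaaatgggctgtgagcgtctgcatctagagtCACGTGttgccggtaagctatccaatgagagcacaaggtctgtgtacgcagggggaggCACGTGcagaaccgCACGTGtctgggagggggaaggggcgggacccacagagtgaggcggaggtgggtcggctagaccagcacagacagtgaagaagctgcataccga
Tef, start site 1 (chr15:81802423-81802722, plus strand): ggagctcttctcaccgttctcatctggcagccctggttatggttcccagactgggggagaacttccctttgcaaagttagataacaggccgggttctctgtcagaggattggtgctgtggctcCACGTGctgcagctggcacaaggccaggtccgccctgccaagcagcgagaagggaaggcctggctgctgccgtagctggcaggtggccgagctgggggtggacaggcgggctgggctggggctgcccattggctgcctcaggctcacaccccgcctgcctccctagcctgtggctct
Tef, start site 2 (chr15:81811164-81811463, plus strand): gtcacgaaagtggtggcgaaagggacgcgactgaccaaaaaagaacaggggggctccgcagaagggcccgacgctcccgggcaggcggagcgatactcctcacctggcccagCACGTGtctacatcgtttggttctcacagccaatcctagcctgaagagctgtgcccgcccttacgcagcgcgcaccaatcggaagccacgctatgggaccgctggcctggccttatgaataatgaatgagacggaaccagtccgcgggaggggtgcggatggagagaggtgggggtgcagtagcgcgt
Per1 (chr11:69098699-69098998, plus strand): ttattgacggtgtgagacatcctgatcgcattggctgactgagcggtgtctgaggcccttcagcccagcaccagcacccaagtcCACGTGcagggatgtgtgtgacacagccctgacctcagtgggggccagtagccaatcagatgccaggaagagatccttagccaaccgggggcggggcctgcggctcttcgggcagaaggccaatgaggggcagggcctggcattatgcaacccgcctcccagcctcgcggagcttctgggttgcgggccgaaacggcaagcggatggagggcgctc
Per3 (chr4:151044616-151044915, minus strand): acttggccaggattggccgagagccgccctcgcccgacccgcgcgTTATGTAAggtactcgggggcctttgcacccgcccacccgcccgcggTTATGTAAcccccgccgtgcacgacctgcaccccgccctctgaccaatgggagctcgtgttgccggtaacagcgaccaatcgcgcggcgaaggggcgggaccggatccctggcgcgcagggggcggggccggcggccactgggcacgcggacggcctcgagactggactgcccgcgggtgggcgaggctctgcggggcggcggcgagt
Both strands were searched and no matches overlapped. Ciart holds 3 E-boxes, which begin at positions -116, -58 and -44 from the start site, and Per3 holds 2 D-boxes, which begin at -205 and -158. Of the 20 clock genes, 16 had a window, and 5 of these held an E-box (Ciart, Tef, Per1, Bhlhe41 and Cry1), against 7.15% of all 32851 windows and 8.09% of the 27025 genes that have one. The D-box was found in the window of 1 clock gene, and in 0.938% of all windows and 1.11% of the genes that have one. The AP-1 site (TGAGTCA or TGACTCA) and the E2F site (TTTCCCGC or TTTGGCGC) were found in the windows of 0 clock genes. They were found in 5.2% and 1.56% of all windows, and in 5.95% and 1.8% of the genes. The ETS core (CCGGAAG) was found in 1 clock gene, against 8.86% of all windows and 9.93% of the genes. Neither Dbp nor Arntl had an E-box or a D-box in these 300 bases. The same held for Hlf, Nr1d1, Nr1d2, Cry2 and Clock, whose groups did not overlap either. A link between a box and the difference was not tested. A match describes the letters of the window and is not a measured binding site.

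Across all genes, resistant and 4-day tumours differed past the threshold in 8 of the 21969 genes and transcripts tested, which is 0.0364% (limma, Benjamini-Hochberg adjusted p under 0.05). Of these, 3 were higher in resistant tumours (0.0137%) and 5 were lower (0.0228%). The higher genes were Adamts4, Arntl and Hspa5, and the lower ones were Dbp, Tef, Ciart, Alcam and D7Wsu130e. In 6 of the 8 the difference was at least 2-fold, and in all 8 the groups did not overlap. Dbp, Tef, Ciart and Arntl belong to the clock. Without adjustment, 2530 genes (11.5%) had p under 0.05, where chance would give 1098, with 1271 higher (5.79%) and 1259 lower (5.73%). The groups did not overlap with resistant tumours higher in 297 genes (1.35%) and lower in 291 (1.32%). Over all genes the median difference was 0.0088 and 51.9% of the differences were positive.

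The count of 8 depended on the fit and on single tumours. In a fit of these 8 arrays alone 0 genes passed (1428 at an unadjusted p under 0.05, limma), while with array weights 578 passed, among them all 8. When a resistant tumour was left out, the count was 3 for replicate 1, 3 for replicate 2, 11 for replicate 3 and 2 for replicate 4. When a 4-day tumour was left out, it was 3 for replicate 1, 8 for replicate 2, 5 for replicate 3 and 2 for replicate 4. Dbp and Arntl passed in all 8 of these fits, with adjusted p up to 0.0226 for Dbp and 0.0272 for Arntl. A further limma fit took the title code as a random block, which allows for shared codes, in place of the slide block. In it Dbp passed (adjusted p = 0.0168), and Arntl, Tef, Ciart, Adamts4, Hspa5, Alcam and D7Wsu130e did not (adjusted p between 0.153 and 0.219). With the slide block dropped and no code in the fit, Dbp alone passed as well (adjusted p = 0.00656). The effect of the shared codes is therefore not separated from that of the dropped slide block. With 1 tumour left out, Adamts4, Tef and Alcam passed in 2 of the 8 fits each, and Hspa5, Ciart and D7Wsu130e in 1 each. The log2 difference kept its sign in every one of these fits. Resistant replicate 1 had the highest score, 91.2, on principal component 1 of all 16 arrays, which held 39.9% of the variance. The other 7 tumours of the comparison lay between -51.4 and 16.8, and the untreated tumours at 33.1, 57, -19.2 and 49.8. Correlations across genes ran from 0.628 to 0.916 within the resistant group, from 0.833 to 0.941 within the 4-day group and from 0.577 to 0.923 between them. Gene by gene, the difference on slide 1 and that on slide 2 correlated at 0.0894, with genes that are not independent of each other.

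Among the genes past the threshold, the smallest p-values were those of the clock genes Dbp, Arntl and Tef. Dbp encodes a D-box transcription factor whose RNA swings widely over the day (chromosome 7, probe at 52965322 to 52965381 on mm9). Its log2 ratio was -1.53, -0.76, -0.93 and -1.83 in the resistant tumours, against 1.63, 2.25, 2.40 and 1.52 in the 4-day tumours. Every resistant tumour lay below the reference RNA and every 4-day tumour lay above it. Dbp fell 9.28-fold (log2 difference -3.21 ± 0.33, SE, n = 4 against 4, limma adjusted p = 0.00417). A further probe of Dbp gave a difference of -3.49. The slides gave -3.34 on slide 1 and -3.08 on slide 2.

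Arntl, the gene of the activator BMAL1 (chromosome 7, 120457261 to 120457320), went the other way. It had log2 ratios of 0.56, 0.46, 1.22 and 0.71 in the resistant tumours, against -0.77, -1.46, -0.86 and -0.32 in the 4-day tumours. The groups were again on opposite sides of the reference. Arntl rose 3.01-fold (1.59 ± 0.17, limma adjusted p = 0.00439), by 1.56 on slide 1 and 1.62 on slide 2. Tef, a D-box factor of the same family as Dbp (chromosome 15, 81657221 to 81657280), had -0.29, 0.27, 0.10 and -0.50 in the resistant tumours, against 1.42, 1.93, 2.20 and 1.25 in the 4-day tumours. It fell 3.49-fold (-1.80 ± 0.26, adjusted p = 0.0316). Ciart, a repressor of CLOCK and BMAL1 (chromosome 3, 95682433 to 95682492) and the gene with 3 E-boxes above, had -0.82, -0.53, -0.72 and -0.76 in the resistant tumours, against 0.64, 1.49, 0.52 and 0.28 in the 4-day tumours. It fell 2.72-fold (-1.44 ± 0.21, adjusted p = 0.0316). The resistant values of Ciart lay close together (SD 0.13), while the 4-day values spread more (SD 0.53).

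**Figure D1:**
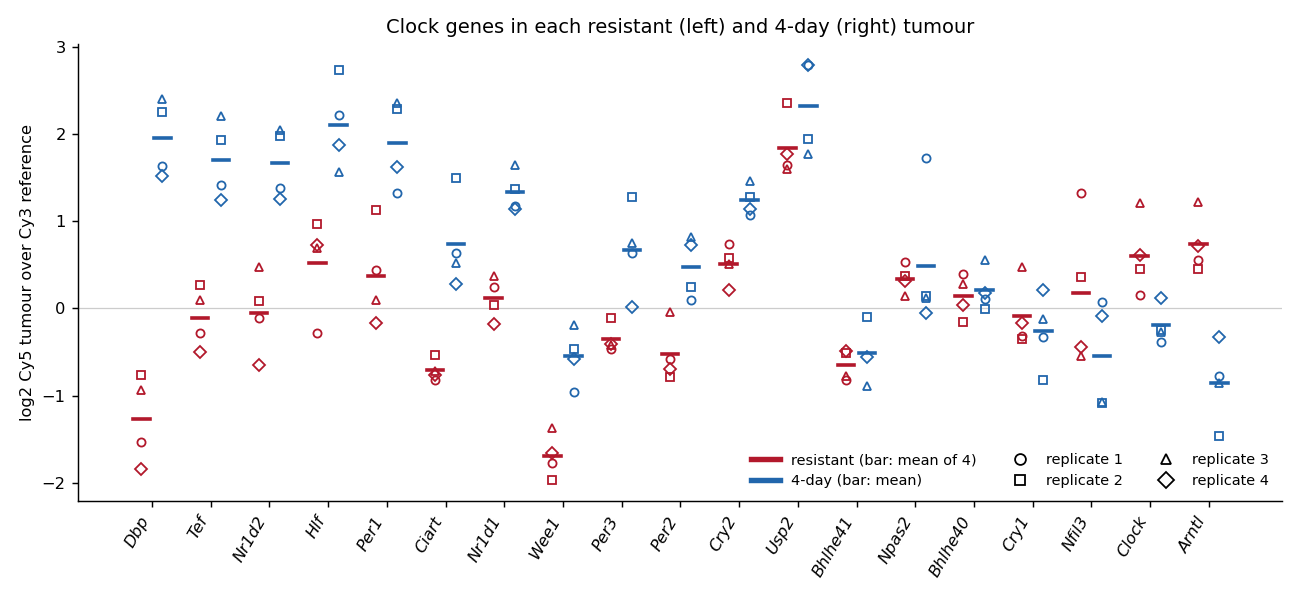
The log2 ratio of tumour over reference of 19 clock genes in each of the 4 resistant (red, left) and 4 4-day tumours (blue, right), ordered by the difference, with symbols for the replicates and bars for group means. From Dbp to Cry2 the resistant tumours lay below all 4-day tumours, and in Clock and Arntl above them.

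All 20 clock genes of the list were tested. The groups did not overlap in 13 of them, with 11 lower and 2 higher in resistant tumours, beside 1.32% and 1.35% of all genes. In limma 13 had an unadjusted p under 0.05, beside 11.5% of all genes. The list was chosen with earlier results of these data known, so its count is not independent evidence. The clock genes past the threshold were Dbp, Tef and Ciart among the 11 and Arntl among the 2. The median difference over the list was -0.86, with -0.87 on slide 1 and -0.83 on slide 2, and 17 of the 20 genes had the same sign on both slides. The members described next were named after their values were seen, and none passed the threshold.

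Per1 and Per2 encode repressors of CLOCK and BMAL1. Per1 had 0.44, 1.12, 0.10 and -0.17 in the resistant tumours, against 1.32, 2.29, 2.35 and 1.62 in the 4-day tumours (difference -1.52 ± 0.32, adjusted p = 0.183). Per2 had -0.58, -0.79, -0.04 and -0.69 in the resistant tumours, against 0.09, 0.25, 0.82 and 0.72 in the 4-day tumours, with means of -0.52 and 0.47 (SE of the difference 0.16, 95% interval -1.35 to -0.64, adjusted p = 0.0736). Neither gene's groups overlapped. Per3, a further Period gene and the one with 2 D-boxes above, differed by -1.02 ± 0.20 and the repressor gene Cry2 by -0.73 ± 0.15. Among the nuclear receptors, Nr1d2 had -0.11, 0.08, 0.48 and -0.65 in the resistant tumours, against 1.38, 1.97, 2.04 and 1.26 in the 4-day tumours (-1.71 ± 0.31, adjusted p = 0.122). Nr1d1 differed by -1.21 ± 0.22 (adjusted p = 0.125). Hlf, the third D-box factor, differed by -1.57 ± 0.34, and Wee1, a kinase that holds back mitosis and has clock-driven transcription, by -1.14 ± 0.22. Clock, the partner of BMAL1, had 0.15, 0.45, 1.20 and 0.61 in the resistant tumours, against -0.38, -0.25, -0.27 and 0.12 in the 4-day tumours (0.80 ± 0.16, adjusted p = 0.172). The lowest resistant value of Clock was just above the highest 4-day value.

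The groups overlapped in Usp2, Bhlhe41, Npas2, Bhlhe40, Cry1 and Nfil3, with differences between -0.48 and 0.71. Nfil3, a repressor at D-boxes, differed by 0.71 ± 0.36 (adjusted p = 0.463), and Cry1, the second cryptochrome, by 0.18 ± 0.16 (adjusted p = 0.706). Npas2, which can take the place of CLOCK, was set apart in 4-day replicate 1, at 1.73 against -0.05 to 0.14 in the other 4-day tumours. The mean of the 20 genes was -0.07, 0.11, 0.18 and -0.16 in the resistant tumours, against 0.78, 0.76, 0.77 and 0.70 in the 4-day tumours. The 4-day tumours lay within a narrow band, with all resistant tumours below it. The sources used here do not give the hour of the biopsies, so a difference in the time of day at sampling cannot be told apart from the length of treatment. The untreated and 60-day groups were not compared by a test here, though their arrays share in the model's estimate of the spread. As a description, the mean of the list was -0.11 over the untreated tumours, 0.75 over the 4-day, 0.26 over the 60-day and 0.02 over the resistant tumours.

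The remaining genes past the threshold are outside the clock list. Adamts4, a secreted protease that cleaves the proteoglycans aggrecan and versican (chromosome 1, 173190709 to 173190768), had log2 ratios of 5.06, 4.13, 3.43 and 4.26 in the resistant tumours, against 2.46, 1.95, 2.27 and 1.13 in the 4-day tumours. The lowest resistant tumour lay well above the highest 4-day tumour. Adamts4 rose 4.81-fold (2.27 ± 0.32, limma adjusted p = 0.0316), by 2.14 on slide 1 and 2.39 on slide 2, and a further probe gave 2.19. Hspa5, the main HSP70 chaperone of the endoplasmic reticulum, known as BiP (chromosome 2, 34631913 to 34631972), had 0.59, 0.38, 0.22 and 0.39 in the resistant tumours, against -0.35, -0.21, -0.30 and -0.31 in the 4-day tumours. It rose 1.61-fold (0.69 ± 0.10, adjusted p = 0.0316); all resistant values were above the reference RNA and all 4-day values below it. Alcam, a cell adhesion molecule of the immunoglobulin family that is found on melanoma and immune cells (chromosome 16, 52268908 to 52270785), had 0.15, -0.25, -0.26 and 0.25 in the resistant tumours, against 1.14, 0.78, 0.88 and 1.39 in the 4-day tumours. It fell 2.10-fold (-1.07 ± 0.16, adjusted p = 0.0316). D7Wsu130e, a name that the RefSeq table does not hold (chromosome 7, 117263506 to 117263565), fell 1.65-fold (-0.72 ± 0.11, adjusted p = 0.0316). It was above background on 1 resistant array and on 4 4-day arrays, so its resistant level is a bound in the other 3 tumours. The probe of the clock list gene Wee1 lies on the same chromosome, at 117286573 to 117286632 on the other strand. A link between them was not tested.

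**Figure D2:**
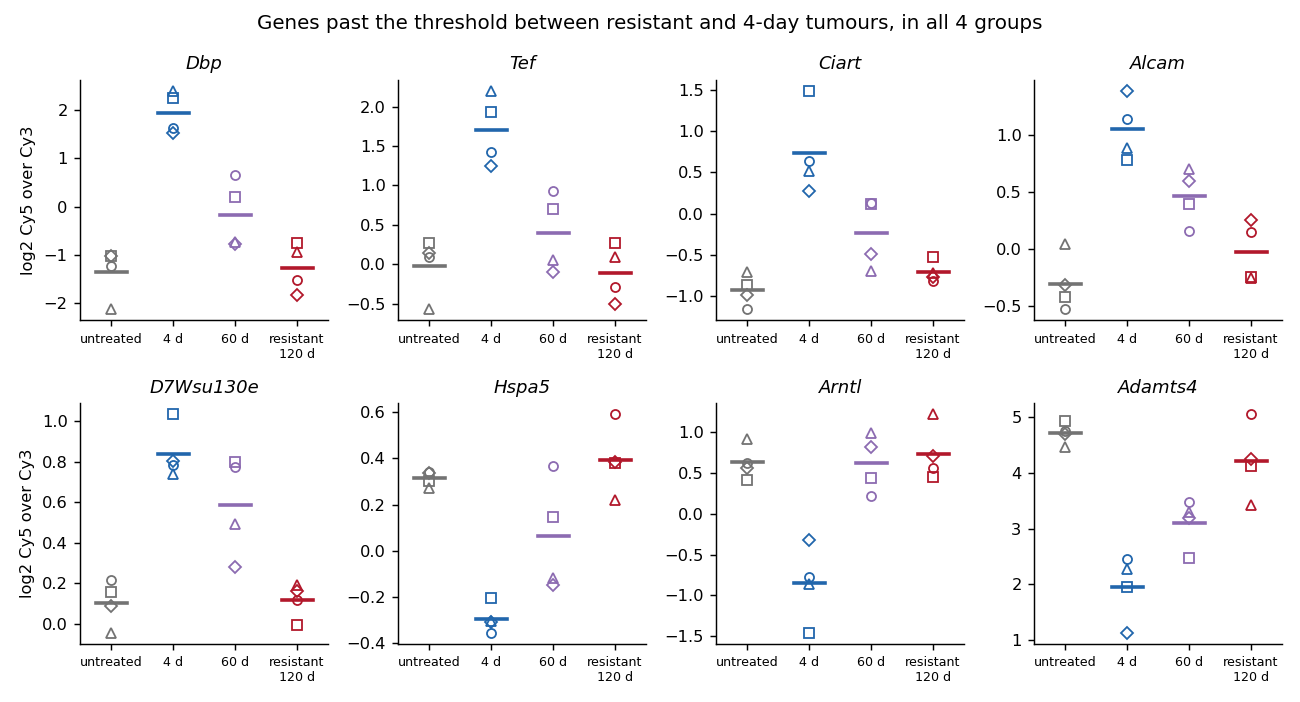
The log2 ratio of tumour over reference of the 8 genes past the threshold in every tumour of the 4 groups, in the order of treatment time, with symbols for the replicates as in the plot of clock genes and bars for group means. Resistant and 4-day tumours do not overlap in any panel, and the means of the untreated tumours lie nearer to those of the resistant than of the 4-day tumours.

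The untreated and 60-day tumours give these values a frame, without a test. Dbp averaged -1.35 in untreated, 1.95 in 4-day, -0.17 in 60-day and -1.26 in resistant tumours. Arntl averaged 0.63, -0.85, 0.62 and 0.74 in the same order. Adamts4 averaged 4.72 in untreated, 1.95 in 4-day, 3.11 in 60-day and 4.22 in resistant tumours, and Hspa5 averaged 0.31, -0.29, 0.06 and 0.39. Alcam averaged -0.31 in untreated, 1.05 in 4-day, 0.46 in 60-day and -0.02 in resistant tumours. In all 8 genes the untreated mean was closer to the resistant than to the 4-day mean.

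The list of MAPK targets and feedback inhibitors holds genes downstream of the drugged pathway, and how closely their RNA follows MAPK activity in these biopsies was not tested. Of 21 genes of the list 19 were tested, 0 passed the threshold, and 15 had a positive difference (median 0.42, beside 0.0088 for all genes), with an unadjusted p under 0.05 in 4 that were higher and 1 that was lower (5.79% and 5.73% of all genes). Ccnd1, the cyclin D1 gene that drives entry into the cell cycle (chromosome 7, 152116202 to 152116261), had log2 ratios of 1.58, 1.78, 1.45 and 1.77 in the resistant tumours, against -0.10, 0.73, -0.13 and -0.04 in the 4-day tumours. The groups did not overlap, though 4-day replicate 2 lay apart from the other 4-day tumours. The difference was 1.53 ± 0.31 (limma adjusted p = 0.171). Dusp6, a phosphatase that turns off ERK and the other brightest member, had 0.55, 0.39, -0.33 and 0.31 in the resistant tumours, against 0.04, 0.21, 0.53 and -0.09 in the 4-day tumours. These values overlapped fully (0.06 ± 0.19, adjusted p = 0.934; 95% interval -0.36 to 0.47).

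The remaining members were named after their values were seen. Spry4 (0.96 ± 0.37), a feedback inhibitor, Ier3 (0.82 ± 0.32), an early response gene, and Phlda1 (0.76 ± 0.21) had positive differences and Dusp2 (-1.11 ± 0.38), a phosphatase found mainly in immune cells, a negative one, with adjusted p between 0.291 and 0.365. The mean of the list was 0.13, 0.04, 0.22 and 0.26 in the resistant tumours, against -0.09, -0.07, -0.35 and -0.19 in the 4-day tumours, and these did not overlap. This held for the means of 3 of the 38 lists, which were the MAPK, clock and myeloid suppressive lists. The difference was positive in 24 of 30 replication genes (median 0.10) and in 20 of 22 mitosis genes (median 0.18), with 0 of either past the threshold. In limma 2 and 0 had an unadjusted p under 0.05, beside 11.5% of all genes. Mcm6, a subunit of the replicative helicase, differed by 0.27 ± 0.12 (adjusted p = 0.429), Gins3 by 0.01 ± 0.13 (adjusted p = 0.984), the survivin gene Birc5 by 0.27 ± 0.26 (adjusted p = 0.718) and Mki67, which marks dividing cells, by -0.07 ± 0.36 (adjusted p = 0.962). The medians of both lists were positive on slide 1 (0.30 and 0.48) and negative on slide 2 (-0.09 and -0.16).

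Matrix proteases and their inhibitors had 1 of 26 tested genes past the threshold, Adamts4. The difference was positive in 21, the median was 0.46, and 8 had an unadjusted p under 0.05, all with higher values in resistant tumours, beside 5.79% of all genes. The groups did not overlap in 5, all of them higher, beside 1.35% of all genes. Beside Adamts4 these were Mmp9, Mmp13, Adam8 and Adam19, named after their values were seen. Mmp13, a collagenase, had 0.60, 0.88, 1.00 and 1.30 in the resistant tumours, against -0.71, -0.73, -0.81 and 0.14 in the 4-day tumours (1.47 ± 0.40, limma adjusted p = 0.28). Mmp9, a gelatinase made by many myeloid cells, had 2.47, 1.40, -0.57 and -0.27 in the resistant tumours, against -1.60, -1.61, -1.39 and -0.88 in the 4-day tumours (2.13 ± 0.57, adjusted p = 0.28). Resistant replicates 1 and 2 carried most of the Mmp9 difference, which was 0.72 on slide 1 and 3.54 on slide 2, whereas that of Mmp13 was 1.48 and 1.46. Adam8, a membrane protease of leukocytes, differed by 1.68 ± 0.39 and Adam19 by 0.87 ± 0.27. The brightest members, the inhibitors Timp2 and Timp3, differed by 0.13 ± 0.33 (adjusted p = 0.911) and -0.68 ± 0.33 (adjusted p = 0.456). Without resistant replicate 1 the list's median was 0.22.

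**Figure D3:**
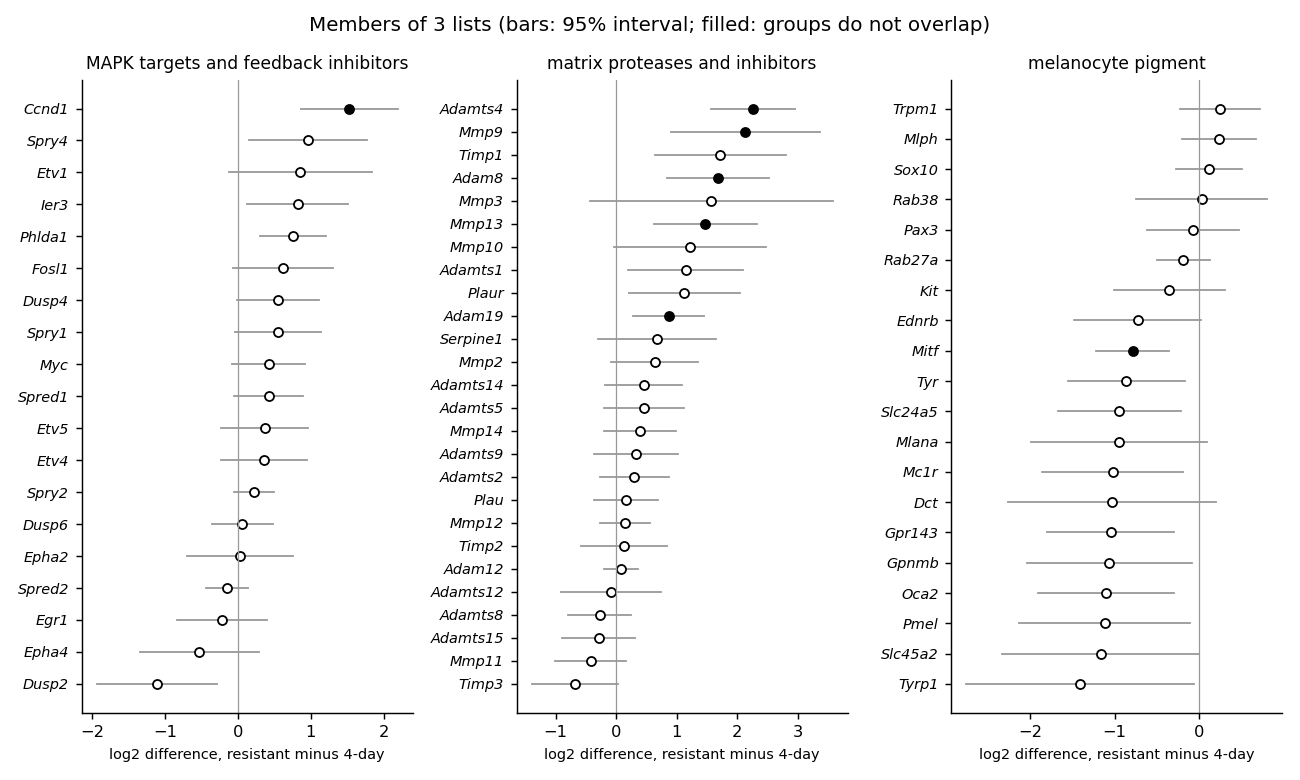
The log2 difference of resistant minus 4-day tumours for every tested gene of the MAPK, matrix protease and pigment lists, with 95% intervals from limma and filled points where the groups do not overlap. Most MAPK and protease genes lie right of 0 and most pigment genes left of it, and the interval of many genes crosses 0.

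Melanocyte pigment genes lay the other way. Of 20 tested genes 0 passed the threshold, 16 had a negative difference (median -0.90), and 10 had an unadjusted p under 0.05, all lower in resistant tumours, beside 5.73% of all genes. In the deposited value table, which held 14 of the genes, the median was -0.42. Mitf, the transcription factor that governs the melanocyte lineage, had 0.67, 0.62, 0.68 and 0.05 in the resistant tumours, against 1.41, 0.98, 1.27 and 1.51 in the 4-day tumours. Its groups did not overlap (-0.79 ± 0.20, limma adjusted p = 0.253). Gpnmb, a glycoprotein of melanosomes and macrophages and the other brightest member, had -2.01, -1.04, -1.61 and -1.90 in the resistant tumours, against -0.39, -0.24, -1.67 and -0.01 in the 4-day tumours, with overlap through 4-day replicate 3 (-1.06 ± 0.45, adjusted p = 0.396). The pigment enzyme genes Tyr and Tyrp1, named after their values were seen, differed by -0.86 ± 0.32 and -1.41 ± 0.62 (adjusted p = 0.357 and 0.413). Not all lineage genes followed, since Sox10, Pax3, Trpm1, Mlph and Rab38, also named after their values were seen, differed by between -0.07 and 0.25. The list mean was 0.90, 1.90, 1.07 and 0.98 in the resistant tumours, against 2.10, 2.38, 1.12 and 1.90 in the 4-day tumours.

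Chaperones and related genes of the endoplasmic reticulum were looked at because Hspa5 had passed, as a list of 20 genes drawn up after that result. The members below were named after their values were seen. Beyond Hspa5 no member passed. With Hspa5 counted, the difference was positive in 19 of the 20 genes, beside 51.9% of all genes (median 0.35, beside 0.0088 for all genes). Beside Hspa5, which prompted the list, the groups did not overlap in Sdf2l1, Hsp90b1 and Dnajb11, all of them higher (1.35% of all genes). Sdf2l1, a partner of the chaperone in the endoplasmic reticulum, had -0.67, -0.96, -0.87 and -1.07 in the resistant tumours, against -1.58, -1.38, -1.52 and -1.46 in the 4-day tumours (0.59 ± 0.11, limma adjusted p = 0.168). Hsp90b1, the HSP90 of this compartment, differed by 0.44 ± 0.14, and Dnajb11, a cochaperone of HSPA5, by 0.43 ± 0.10. Manf, a secreted protein of the same stress response, differed by 0.65 ± 0.15 (adjusted p = 0.229). Herpud1, a factor of protein degradation, was the one negative gene (-0.41 ± 0.15, adjusted p = 0.357). Among genes of amino acid stress, Asns, the asparagine synthetase gene, was named after its values were seen. Asns had -1.72, -1.69, -2.22 and -2.11 in the resistant tumours, against -2.29, -2.75, -3.54 and -2.63 in the 4-day tumours (0.87 ± 0.26, adjusted p = 0.301). Its regulators Atf4 (0.24 ± 0.14, adjusted p = 0.525) and Atf5 (0.16 ± 0.21, adjusted p = 0.805), the brightest of the list, differed less. That list had a median of 0.12 and 0 of 18 genes past the threshold. Its differences ran from -1.82 to 0.92, so the largest in size was a lower gene. In limma 7 had an unadjusted p under 0.05, 5 higher and 2 lower, beside 5.79% and 5.73% of all genes.

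The means of the granulocytic and chemokine lists were highest in the resistant tumours of code RG4. The granulocytic mean was 3.77, 2.78, 1.62 and 1.77 in the resistant tumours, against 1.80, 1.60, 1.44 and 1.31 in the 4-day tumours. Granulocytic genes had 0 of 10 past the threshold, 5 at an unadjusted p under 0.05, all higher (5.79% of all genes), and a median of 1.14, which was 0.29 on slide 1 and 1.62 on slide 2. S100a8, a calcium-binding protein abundant in neutrophils, had 6.68, 4.47, 3.96 and 4.12 in the resistant tumours, against 4.46, 2.68, 2.09 and 2.62 in the 4-day tumours (1.85 ± 0.74, limma adjusted p = 0.369). Resistant replicate 1 lay far above all 4-day tumours, and 2 of the other resistant tumours lay below 4-day replicate 1. Csf3r, the receptor for granulocyte colony-stimulating factor, had 0.41, 0.35, 0.39 and 0.41 in the resistant tumours, against 0.53, 0.43, 1.49 and 0.29 in the 4-day tumours (-0.30 ± 0.23, adjusted p = 0.643). Cxcr2, the chemokine receptor of neutrophils, named after its values were seen, had 4.15, 2.41, 1.09 and 1.17 in the resistant tumours, against 0.53, 0.32, 0.55 and 0.54 in the 4-day tumours (1.72 ± 0.48, adjusted p = 0.291). Its groups did not overlap, and the values of the RG4 tumours stood highest.

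Chemokines and growth factors of myeloid cells had 0 of 17 genes past the threshold, 6 at an unadjusted p under 0.05, all higher (5.79% of all genes), and a median of 0.63, with 0.03 on slide 1 and 1.57 on slide 2. Ccl2, which attracts monocytes, had 0.42, -1.04, -1.50 and -1.53 in the resistant tumours, against -1.88, -1.89, -1.22 and -2.24 in the 4-day tumours (0.89 ± 0.37, limma adjusted p = 0.38). Cxcl12 had 2.17, 0.51, -1.23 and -1.34 in the resistant tumours, against -0.34, -0.47, -0.46 and -0.65 in the 4-day tumours (0.51 ± 0.50, adjusted p = 0.728). The resistant tumours of RG4 lay above all 4-day tumours in Cxcl12 and those of RG5 below all of them. The neutrophil chemokine gene Cxcl5, named after its values were seen, had 4.59, 1.21, -3.35 and -2.24 in the resistant tumours, against -3.51, -3.56, -3.09 and -2.98 in the 4-day tumours (3.34 ± 1.52, adjusted p = 0.424). Without resistant replicate 1 the granulocytic median was 0.65 and the chemokine median 0.37.

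Myeloid suppressive effectors had 0 of 12 genes past the threshold, 11 positive differences, 5 genes at an unadjusted p under 0.05, all higher (5.79% of all genes), and a median of 0.39. Nos2, the inducible nitric oxide synthase, had 0.12, -0.25, -0.74 and -0.69 in the resistant tumours, against -0.94, -0.91, -1.70 and -0.91 in the 4-day tumours (0.72 ± 0.18, limma adjusted p = 0.262). Vegfa, the growth factor of vessels, differed by 0.35 ± 0.10 (adjusted p = 0.301), and these were the 2 genes of the list whose groups did not overlap (1.35% of all genes were higher without overlap). Arg1, an arginase of suppressive myeloid cells, had 3.48, 5.22, 3.16 and 4.01 in the resistant tumours, against 3.61, 3.30, 1.95 and 3.20 in the 4-day tumours (0.95 ± 0.41, adjusted p = 0.401). These 3 were named after their values were seen. The brightest members, Cebpb, a myeloid transcription factor gene, and Ptges, a prostaglandin E synthase gene, differed by 0.42 ± 0.29 (adjusted p = 0.595) and 0.00 ± 0.12 (adjusted p = 0.997). The list mean was 1.07, 0.71, 0.20 and 0.27 in the resistant tumours, against 0.15, 0.17, 0.01 and 0.01 in the 4-day tumours, without overlap.

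Lymphocyte and antigen presentation lists had medians near that of all genes. Medians were -0.01 for T cells (12 genes), 0.04 for cytotoxic and NK cells (13), 0.10 for regulatory T cells and checkpoints (16), 0.00 for MHC class I (14), -0.11 for MHC class II (10) and 0.01 for the interferon response (26). In limma 0 of these 91 genes passed the threshold and 3 had an unadjusted p under 0.05, beside 11.5% of all genes. Of these 3, Calr and Pdia3 of the class I list are also members of the endoplasmic reticulum list above. Cd3e, a chain of the T cell receptor complex, differed by 0.00 ± 0.24 (95% interval -0.52 to 0.53), and resistant replicate 3 lay apart from the rest at -1.31. H2-Ab1, a class II gene, differed by 0.12 ± 0.17, B2m, the light chain of class I, by 0.05 ± 0.28, and Isg15, an interferon-induced ubiquitin-like protein gene, by 0.23 ± 0.26. Adjusted p for these 4 genes ran from 0.766 to 0.997. The slides differed in sign, with medians for T cells of 0.29 on slide 1 and -0.34 on slide 2 and for class II of 0.30 and -0.50. Macrophage genes had a median of 0.26 over 17 genes, and Csf1r, the receptor for macrophage colony-stimulating factor, differed by 0.26 ± 0.33 (adjusted p = 0.797).

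**Figure D4:**
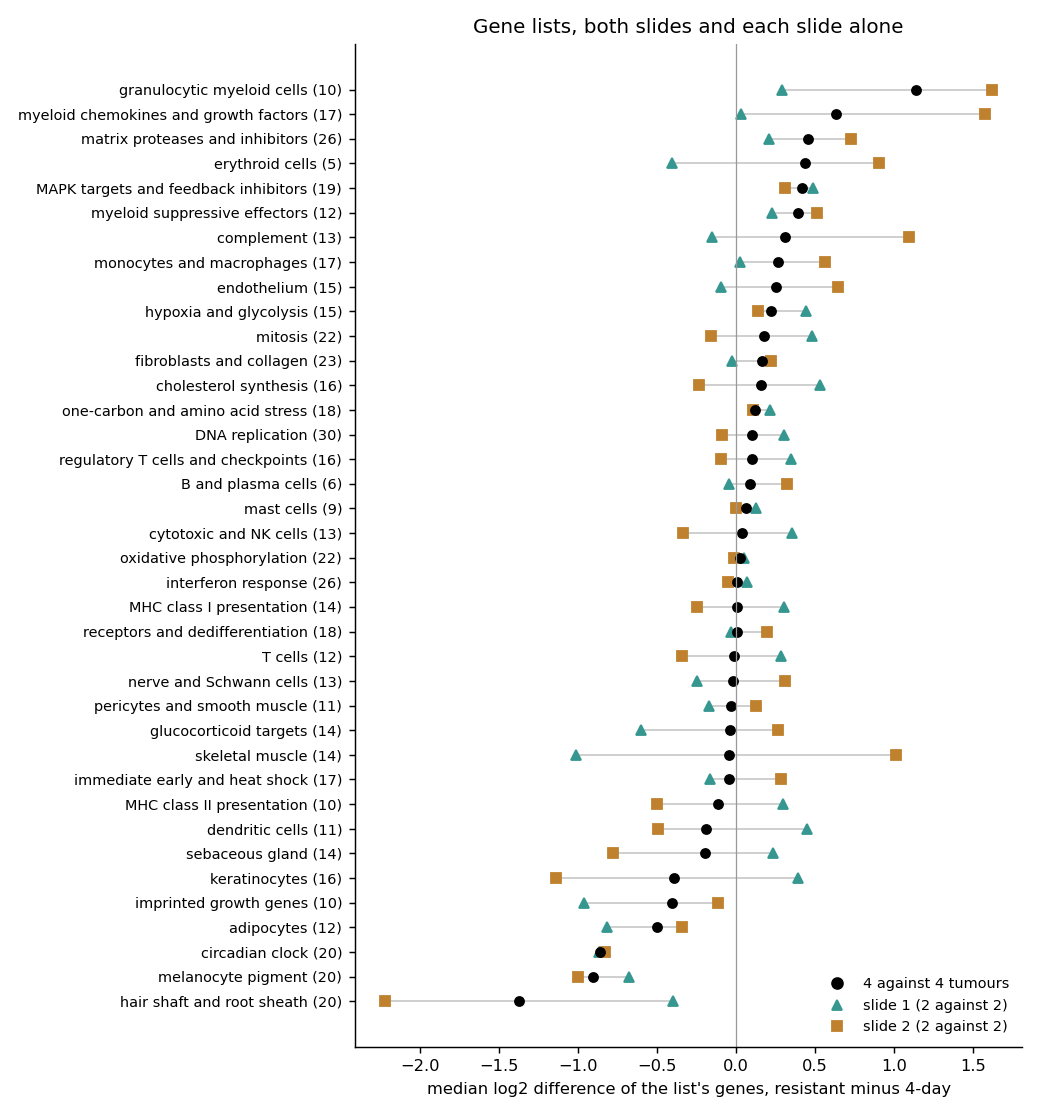
The median log2 difference of resistant minus 4-day tumours for each of the 38 gene lists, with the number of genes tested in brackets, over all 8 tumours (circles) and within slide 1 (triangles) and slide 2 (squares). The clock list is the same on both slides, at -0.87 and -0.83, and 25 lists have opposite signs on the 2 slides.

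The means of the hair and keratinocyte lists were lowest in resistant replicate 1. Hair shaft and root sheath genes had negative differences in 20 of 20 genes, 0 past the threshold, 6 at an unadjusted p under 0.05 (5.73% of all genes were lower at that p) and a median of -1.37, with -0.40 on slide 1 and -2.22 on slide 2. The list mean was 0.96, 2.77, 3.34 and 3.89 in the resistant tumours, against 4.79, 3.38, 3.72 and 4.47 in the 4-day tumours. Resistant replicates 2 and 3 thus also lay below every 4-day tumour. Without resistant replicate 1 the median was -0.69. Krt71, a keratin of the inner root sheath, differed by -0.68 ± 0.48 (limma adjusted p = 0.611) and Krt85, a hair cortex keratin, by -0.16 ± 0.29 (adjusted p = 0.87). The keratinocyte list had a mean of 1.56 in resistant replicate 1, 4.56, 3.48 and 4.36 in the other resistant tumours, and 4.31, 4.28, 3.14 and 3.78 in the 4-day tumours. Its median was -0.39 over all tumours and 0.39 without resistant replicate 1. The basal keratin gene Krt5 differed by -0.03 ± 0.23 and Krt16, a keratin of activated epidermis, by 0.50 ± 0.41 (adjusted p = 0.973 and 0.67). The part of skin content in the chemokine, granulocytic and pigment values was not tested.

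**Figure D5:**
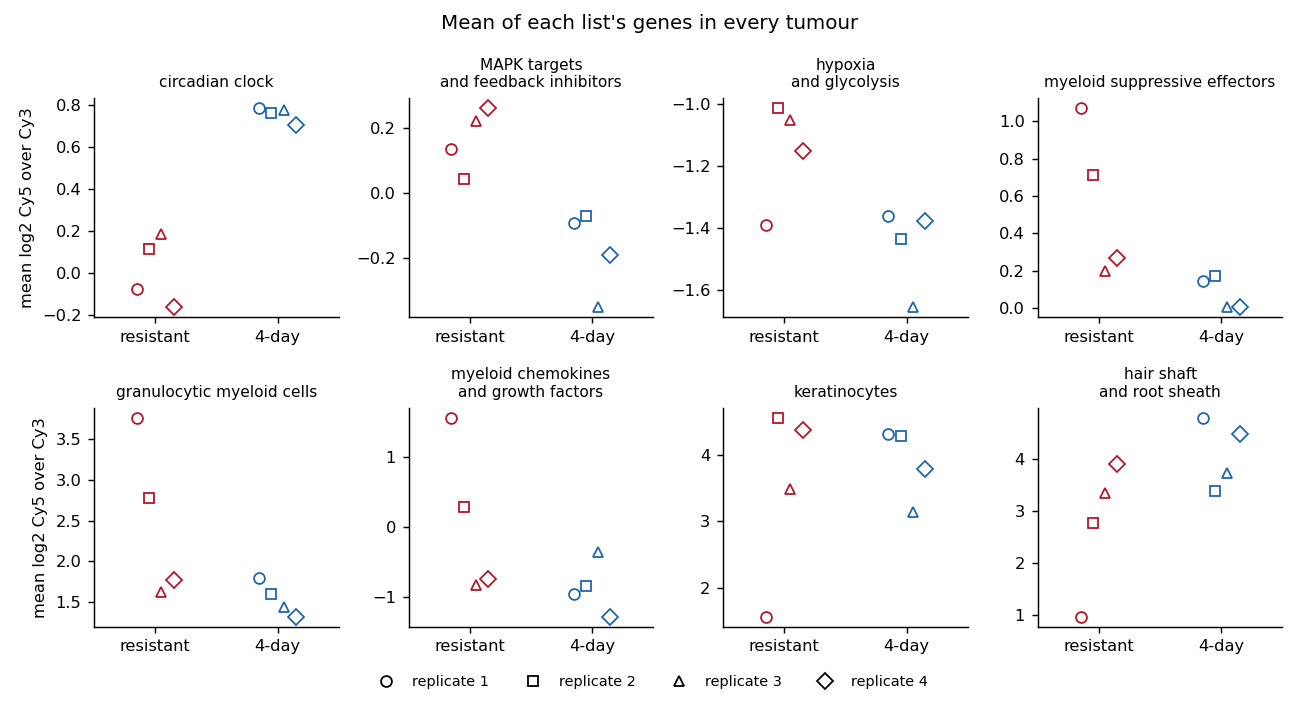
The mean log2 ratio of the genes of 8 lists in each resistant (red, left) and 4-day tumour (blue, right), with symbols for the replicates. In the clock, MAPK and suppressive effector lists the groups are apart, and resistant replicate 1 is the lowest tumour in keratinocyte and hair genes and the highest in granulocytic and chemokine genes.

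Other tissue lists gave no gene past the threshold. Fibroblast and collagen genes had a median of 0.16 (23 genes, 5 at an unadjusted p under 0.05, all higher, beside 5.79% of all genes). Sparc and Col1a2, 2 abundant matrix genes, differed by 0.06 ± 0.43 and -0.07 ± 0.37 (limma adjusted p = 0.973 and 0.964). Endothelial genes had a median of 0.25 (15 genes), with -0.10 on slide 1 and 0.64 on slide 2, and Kdr, the VEGF receptor gene, differed by -0.07 ± 0.40 (adjusted p = 0.963). Adipocyte genes were negative in 12 of 12, with a median of -0.50 and 2 genes lower at an unadjusted p under 0.05, beside 5.73% of all genes. Pnpla2, a triglyceride lipase gene, differed by -0.45 ± 0.19 and Lpl, the lipoprotein lipase gene, by -0.88 ± 0.50 (adjusted p = 0.382 and 0.521). In the hypoxia and glycolysis list (15 genes, median 0.22), Ldha, the lactate dehydrogenase gene, had -0.58, -0.79, -0.72 and -0.78 in the resistant tumours, against -0.95, -1.43, -1.43 and -1.27 in the 4-day tumours (0.55 ± 0.14, adjusted p = 0.269). Its groups did not overlap, nor did those of Pgk1, the phosphoglycerate kinase gene, named after its values were seen (0.51 ± 0.12, adjusted p = 0.229). Aldoa, a neighbour in glycolysis and the other brightest member, had overlapping groups (-0.08 ± 0.20, adjusted p = 0.907). Oxidative phosphorylation genes had a median of 0.03 over 22 genes, with 0 past the threshold in limma and 0 at an unadjusted p under 0.05, beside 11.5% of all genes. Glucocorticoid targets, which follow a daily hormone rhythm, had a median of -0.04 over 14 genes, with -0.60 on slide 1 and 0.26 on slide 2. In limma 1 gene was higher and 2 lower at an unadjusted p under 0.05, beside 5.79% and 5.73% of all genes. Per1, also a member of the clock list, is 1 of the 2 lower genes. The lists not described above had medians between -0.41 for imprinted growth genes (10 genes) and 0.43 for erythroid genes (5 genes), with 0 genes past the threshold in limma. At most 5 in any of these lists had an unadjusted p under 0.05, beside 11.5% of all genes.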

How the data were processed

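The data are 16 tumours, 4 in each of 4 groups, on 2 slides of 8 arrays. Per the file headers, spot intensity in both dyes came from Agilent Feature Extraction 10.7.3.1, which also wrote log10 ratios of tumour (Cy5) over reference (Cy3), and probe coordinates are those of mm9. The deposited value table holds log2 ratios, which followed the scanner ratios with a slope of about 0.993 and have column medians between -0.194 and -0.0638; the sources used here do not say how the authors centred them.

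From the spot intensities, the background was corrected with normexp (offset 50), ratios were normalised by loess within each array with control spots at weight 0, and spots of one probe were averaged (limma 3.58.1, R 4.3.3). Probes above background in Cy5 on at least 4 arrays were kept (30486 probes), and the brightest probe stood for a gene (21969 genes). A linear model of the 4 groups with slide as a block was fitted on all 16 arrays, with Benjamini-Hochberg adjustment over all genes and a threshold of 0.05. Values are log2 differences ± SE, and the number of arrays limits their precision. The script was tested on simulated data. The text names the genes past the threshold and the brightest members of each list, and says where it names others; 1 clock gene is not reported here by name. The samples and gene lists were chosen with earlier results of these data known. Alternatives covered background, normalisation, filter, slide, weights, the deposited table and each tumour left out.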

Additional observations from a re-analysis of the deposited data

Results flagged for a closer look

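In 19 of 302 groups of 4 tumours examined, 1 tumour lay far from the other 3 (Dixon's test at the 95% level, which chance passes in about 1 in 20 groups). Values are log2 ratios of tumour over reference. In the resistant group, replicate 1 was low in Scd1 (1.79, others 3.29 to 3.58), in Hmgcs1 (-0.16, others 1.56 to 1.84) and in the means of the sebaceous gland (0.23, others 2.30 to 2.53) and cholesterol synthesis lists (-0.57, others 1.00 to 1.06), and high in Sil1 (0.0162, others -0.63 to -0.59). Resistant replicate 2 was high in Isg15 (0.64), in Per3 (-0.11, others -0.47 to -0.41) and in the means of the pigment (1.90, others 0.90 to 1.07) and immediate early lists (0.51, others 0.08 to 0.11). Resistant replicate 3 was low in Cd3e (-1.31, others -0.08 to 0.06) and high in the mean of the cytotoxic list (1.03), and resistant replicate 4 was low in Mitf (0.0485, others 0.62 to 0.68).

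In the 4-day group, replicate 2 was high in Ccnd1 (0.73, others -0.13 to -0.04), H2-K1 (3.31, others 1.92 to 2.02), Sec61b (0.0729, others -0.40 to -0.33) and the mean of the regulatory T cell list (0.69, others 0.24 to 0.28). Replicate 1 was high in Npas2 (1.73, others -0.05 to 0.14), and replicate 3 was high in Dnajb9 (0.33, others 0.03 to 0.07) and low in the mean of the sebaceous gland list (1.82, others 2.35 to 2.44).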

How the results depend on the processing

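Against 8 genes past the threshold, the count was 1 without the slide block, 0 in the 8 arrays of these groups alone, 0 within slide 1 (723 at an unadjusted p under 0.05, limma) and 0 within slide 2 (2654). It was 1 with the title code as a random block in place of the slide block, 2 with the processed signals of Feature Extraction, 1 with median centring, 4 in the deposited value table, 4 in Cy5 alone and 578 with array weights (185 higher and 393 lower). Leaving out 1 tumour gave 2 to 11. It was 9 without the filter on dim probes, 7 with Cy5 above background on all 16 arrays and 8 with the mean of all kept probes. The cause was not tested. Dbp passed in 18 of 21 alternatives and Arntl in 15, Adamts4, Tef and Ciart in 7 each, Alcam in 6, Hspa5 in 5 and D7Wsu130e in 4 of the 20 that tested it. Each kept its direction wherever it was tested. The clock median ran to -1.14 with the processed signals and -0.74 with array weights, and the pigment median was -0.42 in the deposited table. No paired analysis was possible because the numbers in the titles do not mark tumours of the same animal or batch across groups.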

Other observations

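The following genes outside the lists were picked after their values were seen from the 20 smallest p-values, leaving out 2 unnamed transcripts, and none passed the threshold. Dio2, the deiodinase gene that activates thyroid hormone, differed by 1.66 ± 0.32 between resistant and 4-day tumours (limma adjusted p = 0.168). Neil2, a DNA glycosylase gene of base excision repair, differed by -0.94 (adjusted p = 0.0888), and Hist3h2a, a histone H2A gene, by -0.51 (adjusted p = 0.0736). Leo1, a subunit of the PAF1 complex, differed by 0.64 (adjusted p = 0.122), and Slc24a2, a sodium, calcium and potassium exchanger gene, by -1.31 (adjusted p = 0.122).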
